A study of Rattus norvegicus with 5 samples.

Results

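Cardiac troponin T (Tnnt2, ENSRNOG00000033734), cardiac troponin I (Tnni3, ENSRNOG00000018250) and the sarcomeric alpha-actinin (Actn2, ENSRNOG00000017833) were followed in neonatal rat ventricular cells in culture, by single-cell sequencing of 5 libraries. The 3 genes were chosen by their identifiers as sarcomere genes, from 15074 genes listed in all 5 tables, and all 3 were measured in every library. The cells were primary ventricular cells, myocytes and non-myocytes together, from wild type Sprague dawley rats at P2. Every culture received an adenovirus, carrying either GFP as the control or human TBX18, and was collected at day 3 or day 14. A further culture at day 14 received the TBX18 virus and 0.2 µM of A83-01, a compound that blocks TGF-beta receptor kinases. The title of that library says day 14 and its treatment label says 3 days, so how long the cells were exposed to it is unclear. By its title, the series addresses how TBX18 turns ventricular myocytes into pacemaker cells. What promoter drives each transgene, and how many animals a culture drew on, is not given in the sources used here. Each of the 5 groups had 1 library, so no difference between groups was tested and no p-value is given.

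The sarcomere is the contractile unit of striated muscle. Troponin T anchors the troponin complex to tropomyosin on the thin filament, troponin I holds the filament off when calcium is low, and alpha-actinin crosslinks the ends of thin filaments at the Z-disc. Tnnt2 and Tnni3 are used as markers of heart muscle cells, and Actn2 is made in heart and skeletal muscle. TBX18 is a T-box transcription factor that takes part in the development of the sinoatrial node, the natural pacemaker of the heart.

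The delivered factor binds DNA through a T-box, so the stretch just before each gene's start was read for short motifs. The windows of 250 bases upstream of the start were taken from the RefSeq promoter table of the GRCr8 build, while the submitters' processing notes name Rnor_6.0 for the deposited data. All 3 members were matched by symbol. Capitals mark matches, on either strand, to the T-box half-site GGTGTGA, the GATA motif AGATAA, the MCAT motif CATTCC, the TATA motif TATAAA, or the MEF2 and CArG motifs by their names. The windows lie on the plus strand at chr13:49818873-49819122 for Tnnt2, chr1:78342321-78342570 for Tnni3 and chr17:62834805-62835054 for Actn2.
Tnnt2: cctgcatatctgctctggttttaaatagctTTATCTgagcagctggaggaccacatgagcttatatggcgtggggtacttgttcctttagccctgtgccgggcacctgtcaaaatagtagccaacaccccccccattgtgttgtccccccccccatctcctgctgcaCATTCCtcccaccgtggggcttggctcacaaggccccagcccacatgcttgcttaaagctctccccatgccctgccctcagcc
Tnni3: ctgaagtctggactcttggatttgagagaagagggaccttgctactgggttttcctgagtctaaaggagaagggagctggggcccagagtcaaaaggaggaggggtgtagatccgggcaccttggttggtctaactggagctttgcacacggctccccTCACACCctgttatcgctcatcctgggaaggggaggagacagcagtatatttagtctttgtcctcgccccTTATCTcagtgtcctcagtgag
Actn2: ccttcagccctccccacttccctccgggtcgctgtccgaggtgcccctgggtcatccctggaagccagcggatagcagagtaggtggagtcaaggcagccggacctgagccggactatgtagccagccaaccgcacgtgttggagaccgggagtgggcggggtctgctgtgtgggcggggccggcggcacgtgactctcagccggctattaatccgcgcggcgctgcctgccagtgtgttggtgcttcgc
The Tnni3 window held 1 T-box half-site, whose first base was at position -92 from the start, and 1 GATA motif at position -22. The Tnnt2 window held 1 GATA motif at position -220 and 1 MCAT motif at position -83. The Actn2 window held none of these motifs, which says only that these letters are not in this window. The table lists another Tnnt2 start, whose window at chr13:49823809-49824058 held 1 T-box half-site at position -186. No match overlapped another. Of 33465 windows of the same length in the table, 3.22% held the T-box half-site, 10.3% the GATA motif, 12.1% the MCAT motif, 12.9% the TATA motif, 0.523% the MEF2 motif and 1.497% the CArG motif. The E-box CANNTG, left in lower case, occurred 4 times in the Tnnt2 window, 2 times in the Actn2 window and 0 times in the Tnni3 window, and was held by 65.5% of all windows. A match describes letters and not a bound site.

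The libraries held 6424 to 8859 barcodes, and median depth per barcode lay between 15610 and 28566 UMIs, a UMI being the tag of 1 captured RNA molecule. EGFP UMIs marked both GFP libraries, and ZsGFP and hTBX18 UMIs marked all 3 TBX18 libraries. After barcodes with under 500 genes and likely doublets were left out, 6063 to 7898 cells per library fell into 2 compartments. These were found by clustering without the virus genes and without the 3 members, and compartment 1 was named as the one where, at day 3, more of the GFP-virus cells carried EGFP. Any 2 libraries shared 7 to 20 barcodes. The files do not pair their identifiers with gene names, so no other marker could be read and the compartments are given no cell type. The day 14 tables began at 1997 genes per cell and were deposited in another unit than the day 3 tables, so a difference between days cannot be told apart from a difference in the authors' filters.

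All 3 genes were concentrated in compartment 1 of every library. Levels are given in CPM, the usual count of a gene's UMIs scaled to a fixed total of UMIs in the cells counted. These are 3' tag counts, with 1 tag per molecule, and were not scaled by gene length. For Tnnt2, the troponin that binds tropomyosin, the level in compartment 1 was 10373 CPM with GFP and 6108 CPM with TBX18 at day 3. At day 14 it was 10675 CPM with GFP, 11743 CPM with TBX18 and 10684 CPM with TBX18 and A83-01. Among these, TBX18 at day 3 stood alone at the low end, and the 95% counting intervals of GFP and of A83-01 at day 14 overlapped (10639 to 10711 and 10654 to 10713). In compartment 2 the Tnnt2 level was 375.0, 456.3, 271.2, 382.7 and 231.9 CPM in the same order of libraries. For Tnni3, the inhibitory troponin, compartment 1 held 2823, 3491, 3345, 3156 and 3422 CPM in that order, with GFP at day 3 the lowest and TBX18 at day 3 the highest. Compartment 2 held 35.5, 27.4, 43.7, 34.6 and 44.1 CPM of Tnni3. For Actn2, the Z-disc crosslinker, compartment 1 held 784.6, 904.9, 950.4, 1129 and 1034 CPM, lowest with GFP at day 3 and highest with TBX18 at day 14. Compartment 2 held 7.84, 6.74, 9.48, 10.2 and 8.90 CPM of Actn2. Thus the lowest level of each gene in compartment 1 lay above its highest level in compartment 2.

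**Figure D1:**
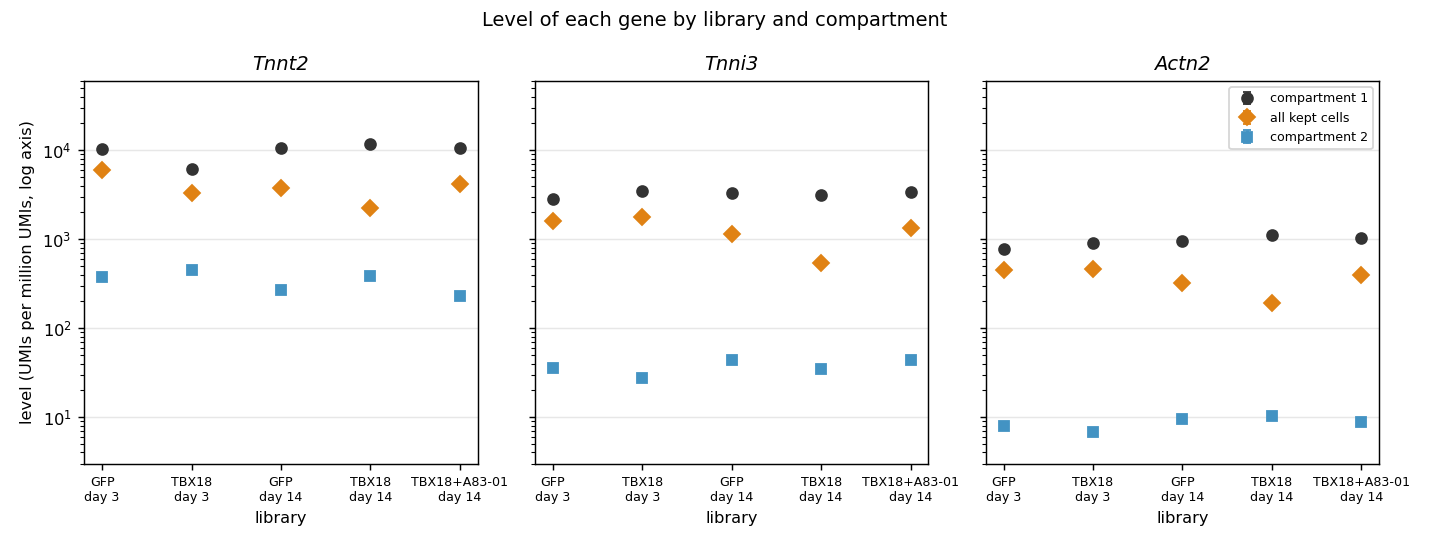
Level of Tnnt2, Tnni3 and Actn2 (CPM, log axis) in each of the 5 libraries, for compartment 1, compartment 2 and all kept cells; bars are 95% Poisson intervals, mostly smaller than the points. Compartment 1 lies above compartment 2 in every panel, and the Tnnt2 level in compartment 1 is lowest with TBX18 at day 3, where it is 6108 CPM.

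At day 3, TBX18 and GFP cells of compartment 1 differed in the balance of the 3 sarcomere genes. Tnnt2 was lower with TBX18, at 6108 CPM against 10373 CPM, a log2 ratio of -0.76 (95% interval -0.77 to -0.76) or 1.70-fold. Tnni3 was higher, at 3491 CPM against 2823 CPM, a log2 ratio of 0.31 (0.30 to 0.31). Actn2 was also higher, at 904.9 CPM against 784.6 CPM, a log2 ratio of 0.21 (0.19 to 0.22). These intervals hold counting error and nothing of the variation from culture to culture. The UMI ratio of Tnnt2 to Tnni3 was 3.67 (3.66 to 3.69) with GFP and 1.75 (1.74 to 1.76) with TBX18, while that of Tnni3 to Actn2 was 3.60 and 3.86. Of the 3 genes, 0 were past 2-fold, against 8.34% of the 4506 genes tested, those averaging 20 CPM or more over the 5 libraries of compartment 1. Past 1.5-fold lower was 1 of 3, Tnnt2, against 13% of these genes. The median log2 ratio of the 3 genes was 0.21, beside -0.09 over all genes tested. Tnnt2 lay above 7.43% of all genes in this comparison, Tnni3 above 79.8% and Actn2 above 73.8%. Most cells of compartment 1 came from different clusters in the GFP library (cluster 2, 78.8%) and in the TBX18 library (cluster 5, 71.0%).

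The lower Tnnt2 level was seen across cells. After each cell was thinned to 5000 UMIs, the median cell of compartment 1 held 52 Tnnt2 UMIs with GFP and 30 with TBX18 at day 3. The 25th percentile with GFP, 42 UMIs, lay above the 75th percentile with TBX18, 40 UMIs. For Tnni3 the medians were 14 and 17 UMIs, and for Actn2 they were 4 UMIs in both. Thinning left out 127 and 90 shallower cells of compartment 1 in these libraries. At day 14 the Tnnt2 medians were 55 UMIs with GFP, 61 with TBX18 and 53 with A83-01, with 25th percentiles of 43, 42 and 42 UMIs. The variance over the mean of thinned Tnnt2 UMIs, the Fano factor, was 4.65 and 7.54 at day 3 with GFP and TBX18. At day 14 it was 6.39, 13.5 and 6.15 with GFP, TBX18 and A83-01. Without cluster 17, described next, the value for TBX18 at day 3 was 5.46. The 25th to 75th percentiles at day 3 spanned 42 to 62 UMIs with GFP and 20 to 40 with TBX18, the same width around different medians.

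**Figure D2:**
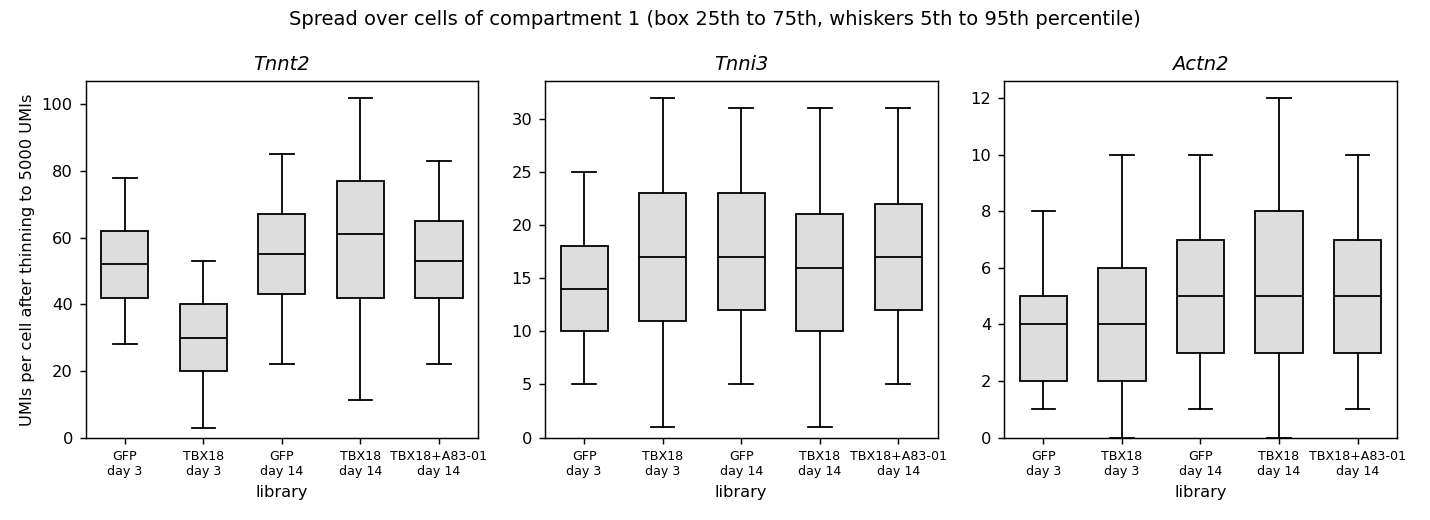
UMIs per cell of compartment 1 after thinning to 5000 UMIs, by library, for each gene; the line is the median, the box the 25th to 75th percentile and the whiskers the 5th to 95th percentile of cells. The Tnnt2 box of TBX18 at day 3 ends at 40 UMIs, under the box of GFP at day 3, which starts at 42 UMIs.

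Within the TBX18 library at day 3, 1 cluster of compartment 1 stood apart in virus RNA and in all 3 genes. Cluster 17, with 422 cells, held 352.8 CPM of ZsGFP and 96.7 CPM of hTBX18, against 19.1 and 14.9 CPM in cluster 5, with 2224 cells. Its Tnnt2 level was 2459 CPM (2430 to 2489), against 6764 CPM (6744 to 6784) in cluster 5. Its Tnni3 level was 1778 CPM against 3922 CPM. Its Actn2 level was 168.1 CPM (160.5 to 176.0) against 1048 CPM (1040 to 1055). Of the 3 compartment 1 clusters of this library with at least 100 cells, cluster 17 was the lowest for all 3 genes. Between clusters 17 and 5, Actn2 differed by more than either troponin. Cluster 15, with 308 cells, held the least virus RNA of the 3 clusters, 6.42 CPM of ZsGFP and 6.22 CPM of hTBX18. Yet it too lay under cluster 5, at 6407 CPM of Tnnt2, 3033 CPM of Tnni3 and 939.7 CPM of Actn2. Levels thus did not simply fall as virus RNA rose. Median depths of clusters 17 and 5 were 26095 and 29988 UMIs. Without cluster 17, an alternative chosen after seeing the data, compartment 1 of this library held 6611 CPM of Tnnt2, 3727 CPM of Tnni3 and 1006 CPM of Actn2. The log2 ratios of TBX18 over GFP at day 3 were then -0.65, 0.40 and 0.36, so the lower Tnnt2 did not rest on these cells, and the Actn2 ratio was larger without them.

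Cells of compartment 1 with a UMI of their own virus were set beside cells without one, each thinned to 5000 UMIs. With TBX18 at day 3, Tnnt2 stood at 5197 CPM in 1376 cells with a transgene UMI and at 6491 CPM in 1665 cells without, a log2 ratio of -0.32 (-0.34 to -0.30). Actn2 was at 750.0 and 1002 CPM, a log2 ratio of -0.42 (-0.47 to -0.37), and Tnni3 at 3220 and 3559 CPM, a log2 ratio of -0.14 (-0.17 to -0.12). For EGFP at day 3, over 2424 cells with and 1962 without, the log2 ratios were -0.02 for Tnnt2, -0.02 for Tnni3 and 0.08 for Actn2. In the TBX18 library at day 14, with 198 cells with and 1066 without, they were -0.25, 0.14 and -0.17. With A83-01, with 331 and 2119 cells, they were -0.20, -0.03 and -0.24. For EGFP at day 14, over 928 and 1086 cells, they were -0.04, -0.03 and -0.11. Tnnt2 and Actn2 were lower in transgene-positive cells of all 3 TBX18 libraries, and with all cells counted by less in those of the GFP library at day 14. The intervals in that GFP library were -0.06 to -0.02 for Tnnt2 and -0.17 to -0.05 for Actn2. In the GFP library at day 3, Tnnt2 was also lower (-0.03 to -0.01) and Actn2 was higher (0.04 to 0.12). With TBX18 at day 3 most of the difference lay in cluster 17. Of its 409 thinned cells, 359 had a transgene UMI. With that cluster left out, a choice made after its values were seen, the log2 ratios at day 3 were -0.08 (-0.10 to -0.06) for Tnnt2 and -0.09 (-0.14 to -0.04) for Actn2. For Tnni3 the ratio turned to 0.09 (0.07 to 0.12). The Actn2 difference was then smaller than that of the GFP library at day 14, -0.11. Cells with a transgene UMI were deeper in every library, by medians of 31560.5 against 28760 UMIs in the TBX18 library at day 3, and a cell without one cannot be taken as free of virus. Tnnt2 in cells of the TBX18 library at day 3 without a transgene UMI, 6491 CPM, still lay under the 10480 CPM of such cells in the GFP library.

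At day 14, the levels of the 3 genes in compartment 1 were close between TBX18 and GFP. Tnnt2 was at 11743 CPM with TBX18 and 10675 CPM with GFP, a log2 ratio of 0.14 (0.13 to 0.15). Tnni3 was at 3156 and 3345 CPM, a log2 ratio of -0.08 (-0.10 to -0.07), and Actn2 at 1129 and 950.4 CPM, a log2 ratio of 0.25 (0.22 to 0.27). Past 2-fold were 0 of 3 genes, against 3.82% of all genes tested, and past 1.5-fold also 0 of 3, against 13.1%. The median of the 3 was 0.14, beside 0.20 over all genes tested. Median-of-ratios scaling, which sets the typical gene equal between libraries, moved these ratios by -0.21 and gave -0.07 for Tnnt2, -0.29 for Tnni3 and 0.04 for Actn2, so the direction of Tnnt2 depends on the scaling. Most cells of compartment 1 were in cluster 10 with GFP (64.5%) and in cluster 9 with TBX18 (79.8%). Within cluster 9, which held 392 GFP and 1010 TBX18 cells, Tnnt2 was at 12279 and 13019 CPM, Tnni3 at 3221 and 3488 CPM and Actn2 at 1073 and 1238 CPM.

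Scaled by total UMIs, levels in compartment 1 with A83-01 added to TBX18 were within 1.10-fold of TBX18 alone. Tnnt2 was at 10684 CPM with the inhibitor and 11743 CPM without, a log2 ratio of -0.14 (-0.14 to -0.13). Tnni3 was at 3422 and 3156 CPM, a log2 ratio of 0.12 (0.10 to 0.13), and Actn2 at 1034 and 1129 CPM, a log2 ratio of -0.13 (-0.15 to -0.10). Past 2-fold were 0 of 3 genes, against 10.5% of all genes tested. The median of the 3 was -0.13, beside -0.38 over all genes tested. Tnnt2 lay above 73.3% of all genes in this comparison, Tnni3 above 89.6% and Actn2 above 74.0%. Median-of-ratios scaling moved the ratios by 0.40 and gave 0.26, 0.51 and 0.27, so Tnnt2 and Actn2 change direction with the scaling and Tnni3 does not. Of the cells with A83-01, 83.1% of compartment 1 were in cluster 7, against cluster 9 without it.

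Between day 3 and day 14, Tnnt2 in compartment 1 was nearly level with GFP and higher with TBX18. Set against day 3, day 14 gave a log2 ratio of 0.04 (0.04 to 0.05) with GFP and 0.94 (0.94 to 0.95) with TBX18. For Tnni3 it was 0.24 (0.23 to 0.25) with GFP and -0.15 (-0.16 to -0.13) with TBX18, and for Actn2 0.28 (0.26 to 0.30) and 0.32 (0.30 to 0.34). With GFP 0 of 3 genes were past 2-fold, against 18.6% of all genes tested, and the median of the 3 was 0.24, beside 0.10. With TBX18 0 of 3 were past 2-fold, against 20.2%, and the median was 0.32, beside 0.39. Past 1.5-fold higher with TBX18 was 1 of 3, Tnnt2, against 37.4% of all genes tested. Median-of-ratios scaling gave -0.05 for Tnnt2 with GFP, and 0.57, -0.52 and -0.05 for Tnnt2, Tnni3 and Actn2 with TBX18. The comparisons above share libraries with each other, so their values stand side by side and were not correlated.

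**Figure D3:**
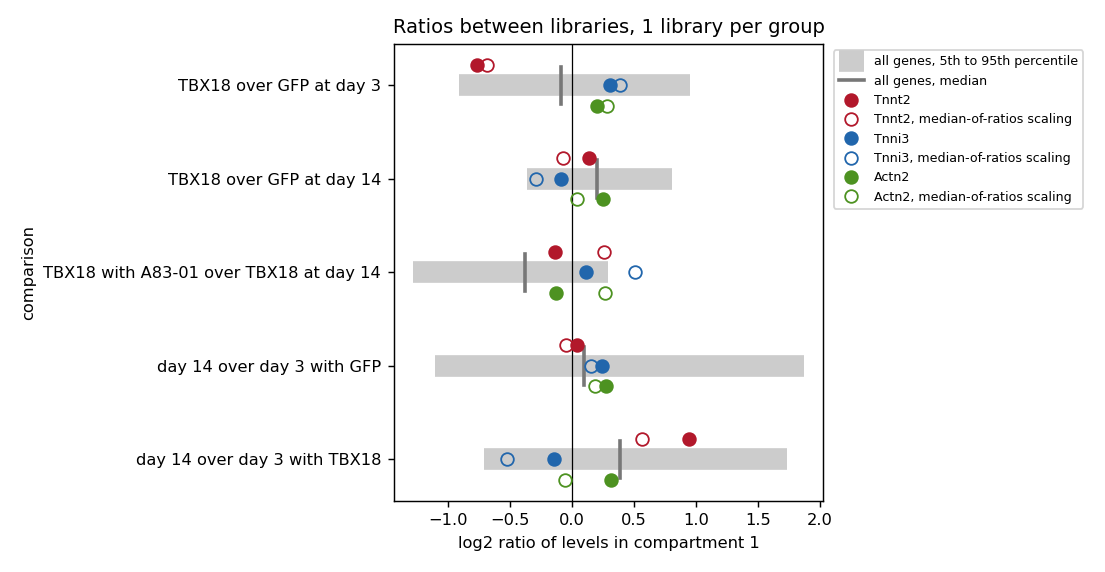
Log2 ratios in compartment 1 (x axis) for the 5 comparisons (y axis); filled points are ratios by totals, open points ratios by median-of-ratios scaling, grey bars the 5th to 95th percentile of all genes and the dark tick their median. Tnnt2 at -0.76 is the point farthest below 0 and falls within the x range of the grey bar of its comparison.

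Counted over all kept cells, the 3 genes were lowest where the fewest cells were in compartment 1, with TBX18 at day 14. The share of cells in compartment 1 was 59.0% and 51.4% with GFP and TBX18 at day 3, and 33.2%, 16.0% and 34.3% with GFP, TBX18 and A83-01 at day 14. Over all cells Tnnt2 was at 6039, 3347, 3735, 2237 and 4180 CPM in that order. Tnni3 was at 1615, 1799, 1143, 544.1 and 1320 CPM, and Actn2 at 447.9, 466.1, 322.8, 192.9 and 396.1 CPM. The levels did not rank as that share did: at day 3 Tnni3 and Actn2 were higher with TBX18 despite its lower share, and Tnnt2 with TBX18 at day 3 lay under GFP and A83-01 at day 14. TBX18 over GFP at day 14 gave log2 ratios of -0.74 for Tnnt2, -1.07 for Tnni3 and -0.74 for Actn2. With the GFP levels of each compartment and the TBX18 make-up they would be -0.92, -0.97 and -0.98, and with the TBX18 levels and the GFP make-up 0.16, -0.09 and 0.25. With A83-01 over TBX18 the measured log2 ratios were 0.90, 1.28 and 1.04, against 1.06, 1.16 and 1.17 from make-up alone and -0.21, 0.13 and -0.13 from levels alone. At day 3, in contrast, the Tnnt2 ratio over all cells of -0.85 compared with -0.14 from make-up alone and -0.72 from levels alone. Past 2-fold over all cells was 1 of 3 genes for TBX18 over GFP at day 14, Tnni3, lower, and 2 of 3 for A83-01 over TBX18, Tnni3 and Actn2, higher. Of all 5028 genes tested, 1.77% were past 2-fold lower in the former comparison and 3.1% higher in the latter. For day 14 over day 3 with TBX18, 2 of 3 genes were past 2-fold lower, Tnni3 at -1.73 and Actn2 at -1.27, against 6.44%. Kept cells of compartment 2 numbered 4048, 6632 and 4694 with GFP, TBX18 and A83-01 at day 14. From a share, fewer cells of compartment 1 in a culture and more cells of compartment 2 cannot be told apart. Nor can either be told apart from fewer compartment 1 cells being recovered in droplets.

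**Figure D4:**
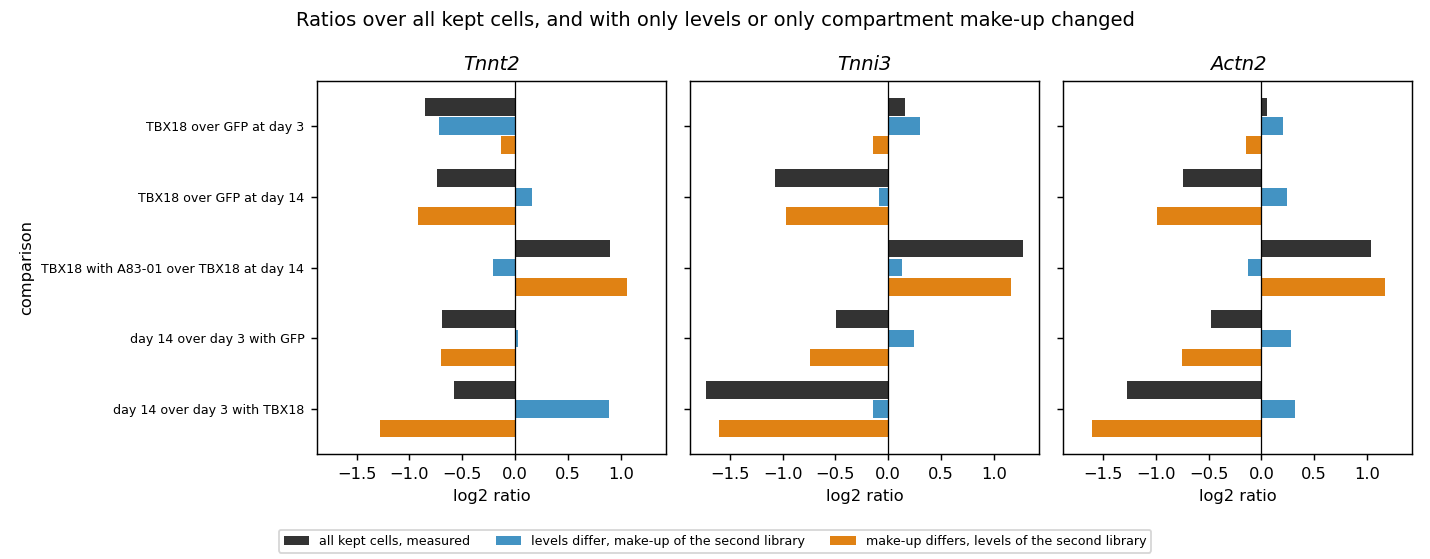
Log2 ratios over all kept cells (x axis) for each gene and comparison (y axis): as measured, with only the levels within compartments taken from the first library, and with only the share of UMIs per compartment taken from it. For both day 14 comparisons the bars of make-up alone lie near the measured bars, while for Tnnt2 at day 3 the bar of levels alone, -0.72, lies near the measured -0.85.

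The share of cells with a UMI was compared after thinning to 5000 UMIs. Over all kept cells, Actn2 was detected in 57.6% (56.4 to 58.7) of cells with GFP and 46.7% (45.4 to 47.9) with TBX18 at day 3. At day 14 Actn2 was detected in 35.1% (33.9 to 36.4) of GFP cells and 19.3% (18.4 to 20.2) of TBX18 cells. With A83-01 it was detected in 35.8% (34.7 to 37.0). Tnni3 was detected in 64.0%, 55.2%, 45.5%, 28.3% and 45.7% of cells in that order, and Tnnt2 in 86.8%, 82.8%, 74.8%, 73.6% and 69.9%. The order for Actn2 and Tnni3 ran with the share of compartment 1 cells, and the order for Tnnt2 did not. Unthinned shares were higher, for example 63.3%, 55.3%, 41.6%, 27.3% and 42.0% for Actn2. Within compartment 1, Tnnt2 was detected in at least 98.7% of cells in each library, and Actn2 in 95.5%, 87.8%, 96.5%, 94.1% and 97.1%. All 3 genes together were found in 95.2%, 87.0%, 96.2%, 91.6% and 96.7% of compartment 1 cells. In compartment 2, all 3 were found together in 0.412% to 1.19% of cells. There, Tnnt2 was detected in 68.2%, 66.3%, 62.2%, 68.7% and 54.3% of cells, so compartment 2 cells add to its share over all cells. Tnni3 was detected in 11.5% to 18.7% of compartment 2 cells and Actn2 in 3.64% to 4.99%. Without cluster 17, Actn2 was detected in 95.1% (94.2 to 95.9) of compartment 1 cells of the TBX18 library at day 3.

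In compartment 2, Tnnt2 was present beyond the balance that the 3 genes had in compartment 1. Its level there was 3.62%, 7.47%, 2.54%, 3.26% and 2.17% of that in compartment 1, with the libraries in the order used above. The same shares were 0.785% to 1.31% for Tnni3 and 0.744% to 0.999% for Actn2. Whether free RNA, set free by broken cells and caught in droplets, has a part in these levels was not tested. The UMI ratio of Tnni3 to Actn2 was 2.79 to 3.86 in compartment 1 and 3.38 to 4.96 in compartment 2. That of Tnnt2 to Tnni3 was 1.75 to 3.72 in compartment 1, and in compartment 2 it was 10.6 (10.15 to 10.98), 16.7 (16.0 to 17.4), 6.21 (5.97 to 6.47), 11.1 (10.7 to 11.5) and 5.25 (5.07 to 5.45). Scaled by Tnni3, the Tnnt2 of compartment 2 was 2.87, 9.52, 1.95, 2.98 and 1.68 times what the compartment 1 ratio of the same library gives. Barcodes with under 500 genes, found at day 3 only, had ratios of 4.09 (3.65 to 4.61) with GFP and 2.24 (1.81 to 2.77) with TBX18. Compartment 1 of the same libraries had 3.67 and 1.75, so the low-gene barcodes lay closer to compartment 1 than to compartment 2. The shallowest barcodes of these libraries held 1782 and 1433 UMIs, and the low-gene barcodes are not a measure of free RNA. No cell type known to lack these genes could be named, so a background share was not measured.

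The clusters of compartment 2 differed in this ratio within 1 library. At day 3, cluster 19 had 3.67 (3.16 to 4.28) Tnnt2 UMIs per Tnni3 UMI with GFP and 2.25 (1.74 to 2.92) with TBX18. Cluster 8 had 13.1 (12.4 to 14.0) with GFP and 35.3 (27.8 to 45.5) with TBX18, and cluster 6 had 19.0 (17.99 to 20.02) with TBX18. Those clusters were singled out after their values were seen. Tnnt2 levels were 167.4 and 65.2 CPM in cluster 19 and 387.8 and 726.4 CPM in cluster 8, with GFP and TBX18. The Tnnt2 level was lower with TBX18 in clusters 14, 18 and 19 and higher in clusters 6, 8 and 12. A median of 1 Tnnt2 UMI per cell remained in compartment 2 of each library after thinning, and at least 2 Tnnt2 UMIs were found in 41.2%, 46.3%, 32.1%, 42.0% and 24.8% of its cells. Median depths of compartment 2 were 23585, 27343, 15450.5, 15318.5 and 16400 UMIs.

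**Figure D5:**
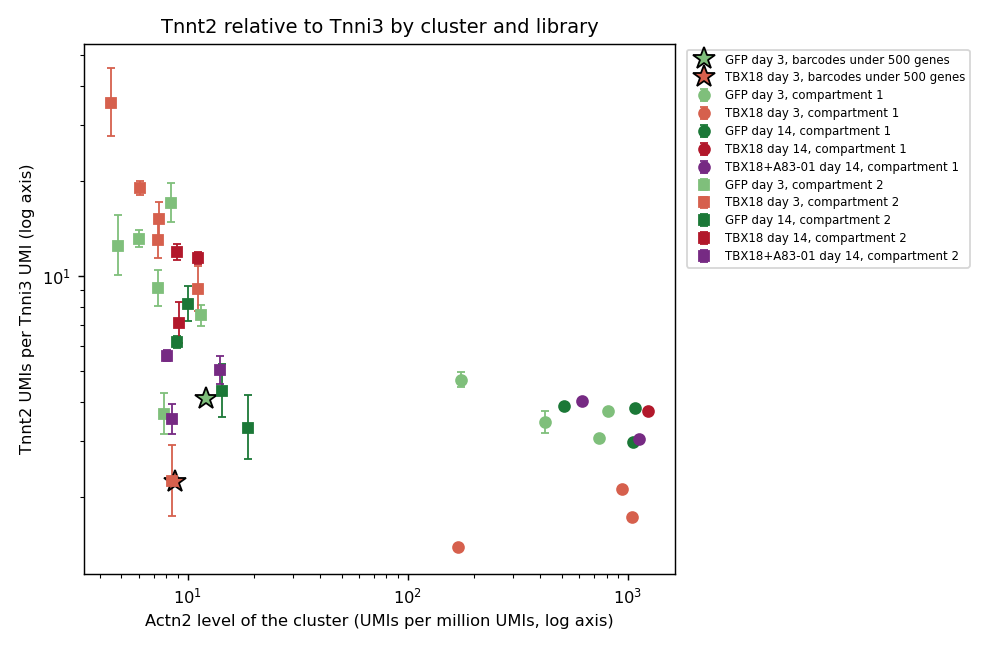
Tnnt2 UMIs per Tnni3 UMI (y axis, log) against the Actn2 level (x axis, CPM, log) for each cluster in each library with at least 100 cells; circles are compartment 1, squares compartment 2, stars barcodes with under 500 genes, bars 95% intervals. Compartment 2 spans ratios from 2.25 to 35.3, and compartment 1 from 1.38 to 4.70.

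Between libraries, the low Tnnt2 level of compartment 2 moved apart from Tnni3. At day 3 Tnnt2 was higher with TBX18 than with GFP in compartment 2, with a log2 ratio of 0.28 (0.26 to 0.30), opposite to compartment 1, and Tnni3 was lower, at -0.37 (-0.45 to -0.29). When cells within the day 14 range of genes and UMIs were clustered and split into compartments anew, the Tnnt2 ratio at day 3 was -0.09. Compartment 2 with GFP then held 2687 cells and 32503 Tnnt2 UMIs, against 3139 cells and 29317 UMIs in the main split. The direction of the Tnnt2 ratio thus rests on which cells were assigned to the compartment. At day 14 the log2 ratio of TBX18 over GFP was 0.50 (0.47 to 0.52) for Tnnt2 and -0.34 (-0.41 to -0.27) for Tnni3. With A83-01 over TBX18 it was -0.72 (-0.75 to -0.70) for Tnnt2 and 0.35 (0.29 to 0.42) for Tnni3. Actn2 in compartment 2, counted from 577 to 1091 UMIs per library, had log2 ratios of -0.22, 0.11 and -0.20 in these comparisons, of which the day 14 value for TBX18 had an interval that included 0 (-0.04 to 0.25). None of the 3 genes was past 2-fold in compartment 2, against 1.9%, 2.71% and 8.58% of 4988 genes tested. Actn2 lay under the minimum level of 20 CPM there and is not among the genes tested. When cells were clustered again within the day 14 range, Actn2 at day 3 was past 2-fold, with a log2 ratio of -1.15 from 367 UMIs with TBX18 and 927 UMIs with GFP. Past 1.5-fold lower was 1 of 3, Tnnt2 with A83-01, against 14.9%. What part free RNA has in these levels was not tested.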

How the data were processed

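Single-cell libraries came from a 10x Chromium 3' kit, per the labels' protocols. The submitters' processing notes name STAR 2.7.8a, Partek and Rnor_6.0, without their roles. The authors deposited the day 3 tables as estimated counts of UMIs and the day 14 tables as log2 of CPM plus 1 per cell, judging from the values. UMIs of day 14 were rebuilt per cell, with the nonzero value seen most often set to 1 UMI. This was tested on 300 simulated cells from each day 3 library, made from counts rounded to whole numbers, where 100% of values came back. The simulation does not cover values that are not whole. Of the rebuilt day 14 values, 99.68% to 99.74% per library lay within 0.05 of a whole number. Each value per cell and gene was then rounded to whole UMIs before clustering, levels, shares and thinning. A value that was rounded away counted as not detected. Genes per cell were counted before this rounding.

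The design assumed gene names. The gene table matched 0 of 15074 Ensembl IDs, so marker lists and sarcomere lists were not analysed, and compartment 1 takes the place of the planned myocyte-like class. The members and lists were chosen with earlier results of these data known. The genes named are the 3 members and, for each, those most alike in level across the 10 profiles of library by compartment or across libraries within compartment 1. The rule took 5 of each kind, which have identifiers only, and 2 are printed.

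Barcodes with at least 500 genes were kept, and the top 6% by Scrublet score in scanpy 1.11.5 were left out as doublets, since its automatic threshold marked from 0% to 3.50% of a library. Clusters came from leidenalg 0.10.2 at resolution 1 on 30 principal components of 2000 variable genes. Cluster profiles with at least 20 cells were centred per library, and average linkage split them into 2 compartments. Log2 ratios of single members are ratios of sums over totals. The background over all genes used a pseudocount of 0.5 CPM and a minimum mean of 20 CPM. Ratio scripts were checked on simulated data. Intervals are at 95%: Poisson for levels, Clopper-Pearson for shares, and exact given the total for ratios. They cover counting error only.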

Additional observations from a re-analysis of the deposited data

Results flagged for a closer look

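Several ratios pointed in opposite directions at the 2 days, with the 2 viruses or in the 2 compartments. None of these differences was tested, since each group has 1 library.

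Tnnt2 in compartment 1 had a log2 ratio of TBX18 over GFP of -0.76 at day 3 and of 0.14 at day 14, where median-of-ratios scaling gave -0.07. In compartment 2 at day 3 its ratio was 0.28. From day 3 to day 14 its log2 ratio was 0.041 in compartment 1 and -0.47 in compartment 2 with GFP, and 0.94 and -0.25 with TBX18.

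Tnni3 in compartment 1 was higher with TBX18 at day 3 (0.31) and lower at day 14 (-0.084). In compartment 2 at day 3 it was lower (-0.37). Its log2 ratio of day 14 over day 3 in compartment 1 was 0.24 with GFP and -0.15 with TBX18, and in compartment 2 it was 0.33 with TBX18.

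Actn2 at day 3 was higher with TBX18 in compartment 1 (0.21) and lower in compartment 2 (-0.22). In compartment 2 the TBX18 library gave 577 and the GFP library 613 UMIs of Actn2.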

How the results depend on the processing

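Ratios, counts and shares were recomputed with 1 choice changed at a time. With no filter on cells, with doublets kept and with the day 14 range, cells were clustered and split into compartments again. The alternatives for compartment 2, all kept cells and the ratio of Tnnt2 to Tnni3, the clustering without 500 separating genes and the values without cluster 17 were chosen after seeing the data. In all 608 values were recomputed: 28 changed direction, 296 moved beyond the counting interval or the fold set for them, and 284 did neither. Of the 28, 21 were log2 ratios of single genes whose main interval excluded 0. The other 7 were medians of the 3 genes, for which no interval is given. Since the intervals hold counting error only, small shifts count as moved. The lower Tnnt2 of compartment 1 at day 3 kept its direction under every alternative, between -0.84 and -0.65 within the compartment. No paired analysis was possible because each group has 1 library. The clustering without the sarcomere lists was not run, since their genes could not be named. Other cell and cluster choices could not be checked against a marker.

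The median log2 ratio of the 3 genes in compartment 1 is given in the order TBX18 over GFP at day 3, the same at day 14, A83-01 over TBX18, and day 14 over day 3 with GFP and with TBX18. Median-of-ratios scaling gave 0.28, -0.071, 0.27, 0.16 and -0.054. All kept cells gave 0.057, -0.74, 1.04, -0.50 and -1.27. Without a filter on cells the values that moved were 0.23 for the first and 0.32 and 0.36 for the last 2. With the day 14 range at day 3 they were 0.29, 0.18 and 0.18. With doublets kept they were 0.17 for the first, -0.094 for A83-01, and 0.17 and 0.28 for the last 2. The mean of per-cell CPM gave 0.17, 0.11, 0.28 and 0.38 for all but A83-01, and the deposited per-cell CPM 0.17, 0.11, 0.27 and 0.37. Without the 500 separating genes the median was 0.17 for TBX18 over GFP at day 14, -0.17 for A83-01 and 0.36 for day 14 over day 3 with TBX18. Without cluster 17 it was 0.36 for TBX18 over GFP at day 3 and 0.17 for day 14 over day 3 with TBX18.

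The count of genes past 2-fold in compartment 1, 0 in all 5 comparisons, became 1 at a fold of 1.5 for TBX18 over GFP at day 3 and for day 14 over day 3 with TBX18. It became 1 with the mean of per-cell CPM and with the deposited per-cell CPM for day 14 over day 3 with TBX18. Over all kept cells it was 1 for TBX18 over GFP at day 14, 2 for A83-01 and 2 for day 14 over day 3 with TBX18.

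Single genes whose main interval excluded 0 changed direction as follows. With median-of-ratios scaling Tnnt2 was at -0.071 for TBX18 over GFP at day 14, 0.26 for A83-01 and -0.046 for day 14 over day 3 with GFP, and Actn2 at 0.27 for A83-01 and -0.054 for day 14 over day 3 with TBX18. With doublets kept, Tnnt2 was at -0.023 for day 14 over day 3 with GFP. Over all kept cells, Tnnt2 and Actn2 were both at -0.74 for TBX18 over GFP at day 14, and at 0.90 and 1.04 for A83-01. There, day 14 over day 3 gave -0.69, -0.50 and -0.47 for Tnnt2, Tnni3 and Actn2 with GFP, and -0.58 and -1.27 for Tnnt2 and Actn2 with TBX18. In compartment 2, the day 14 range at day 3 gave -0.090 for Tnnt2 in TBX18 over GFP at day 3 and -0.70 for Actn2 in day 14 over day 3 with GFP. With doublets kept, Tnni3 in compartment 2 was at -0.043 for day 14 over day 3 with TBX18. Over all kept cells, Actn2 at day 3 was at -0.030 with the mean of per-cell CPM and with the deposited per-cell CPM. Without cluster 17, Tnni3 in cells with over without a transgene UMI was at 0.093 in the TBX18 library at day 3. Actn2 in compartment 2 for TBX18 over GFP at day 14, whose main interval included 0, also changed sign, to -0.023 with median-of-ratios scaling and -0.090 with doublets kept. Actn2 in compartment 2 for TBX18 over GFP at day 3 was at -1.15 with the day 14 range, against -0.22. Apart from the scaling and the cells or genes counted, the cause was not tested. Tnnt2 UMIs per Tnni3 UMI in compartment 2 ranged from 8.58 to 13.1 with GFP and from 12.5 to 17.7 with TBX18 at day 3.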

Other observations

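Across the 10 profiles of 5 libraries by 2 compartments, the gene whose level followed Tnni3 most closely among 5027 genes was ENSRNOG00000020955, which has no name here, and Actn2 came next, with a Pearson r of 0.999 of log2 levels. For Actn2 the closest was ENSRNOG00000009845, and Tnni3 stood at place 3. Tnnt2 stood at place 123 for Tnni3, with an r of 0.982. These r describe 10 profiles that share libraries and split mainly by compartment. Within compartment 1 alone, the mean absolute difference of centred log2 levels over 5 libraries was 0.13 between Tnni3 and Actn2, 0.24 between Tnnt2 and Actn2 and 0.31 between Tnnt2 and Tnni3.

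In single compartment 1 cells thinned to 5000 UMIs, Tnnt2 and Actn2 had a Pearson r of 0.058 over 4386 cells of the GFP library at day 3 and 0.46 over 3041 cells of the TBX18 library at day 3. Without cluster 17, r in the latter was 0.30 over 2632 cells. At day 14 r was 0.29 with GFP, 0.36 with TBX18 and 0.38 with TBX18 and A83-01. For Tnnt2 and Tnni3 at day 3, r was 0.33 with either virus, and 0.10 with TBX18 without cluster 17. For Tnni3 and Actn2 at day 3, r was 0.077 with GFP and 0.26 with TBX18, and 0.055 with TBX18 without cluster 17. Cells of a library share culture and preparation, and Actn2 counts of 4 to 5 per cell are sparse.

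A small cluster of the GFP library at day 3, cluster 23 with 111 cells and a median depth of 3262 UMIs, held 17696 CPM of Tnnt2, 3767 CPM of Tnni3 and 175.0 CPM of Actn2. Its Tnni3 to Actn2 ratio was 21.5 (17.1 to 27.4), against 3.61 in cluster 2. Depth moved with this difference and its part was not tested.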
